A study of Canis lupus familiaris with 7 samples.

Results

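The mevalonate and cholesterol synthesis genes were examined in 7 primary canine osteosarcomas, bone tumours of dogs, 4 labelled DLG2 deleted and 3 labelled DLG2 wild type. A list of 8 genes (FDPS, ACSL3, HMGCS1, SQLE, FDFT1, INSIG1, IDI1 and DHCR7) was matched to the gene symbols of the array, and 7 of the 8 had a probe, 10 probes in all, out of 11115 genes measured. IDI1 had no probe under its symbol. FDPS and ACSL3 were selected on these same arrays, for lower values in deleted tumours, so their values are given as a description without a test. The other 5 genes were not selected on their values and were tested. By textbook function 5 of the 7 genes are enzymes of the pathway, whereas ACSL3 activates long-chain fatty acids and INSIG1 is a membrane protein that regulates the pathway.

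The mevalonate pathway builds isoprenoid units from acetyl-CoA. FDPS joins them into farnesyl diphosphate, from which both cholesterol and the lipid anchors of small GTPases are made. When sterols in the endoplasmic reticulum run low, INSIG proteins release SCAP and the transcription factors SREBP1 and SREBP2, which switch on most genes of the pathway together. In bone the pathway is known as the target of the nitrogen-containing bisphosphonates, drugs that inhibit the FDPS enzyme and act mainly on osteoclasts.

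DLG2 codes for a membrane scaffold protein. Each tumour was a specimen of a different dog, hybridised to 1 array. Deleted tumours 1 to 4 came from a mixed German Shepherd and Collie of 8 years, a Rottweiler cross of 9 years, a Greyhound of 6 years and a Great Pyrenees of 7 years. Wild-type tumours 1 to 3 came from a Boxer of 12 years, a mixed Labrador Retriever of 10 years and a Bull Mastiff of 8 years. The sex label was MC for deleted tumours 1 and 3 and wild-type tumour 3, and FS for the rest. No treatment is labelled, and the extent of the deletion in each tumour and its share of tumour cells were not analysed here. In such bulk tissue fewer cells of a type and less RNA per cell cannot be told apart.

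The osteoblast genes COL1A1 and SPARC, which code for bone matrix proteins, had mean log2 intensities of 15.41 and 16.77 in deleted and 15.53 and 16.71 in wild-type tumours. Of the 6 measured osteoblast genes 5 were lower on average in deleted tumours, with a median difference of -0.21, and the mineralisation genes ALPL and BGLAP differed by -1.27 and -1.45 with overlapping groups. The arrays of wild-type tumours 1 and 2 resembled each other more than any other pair, with a Pearson r over probes of 0.987 against 0.935 to 0.966 in the other 20 pairs. They are labelled as separate dogs and were kept apart, with values for their average given where members are described. Deleted tumour 4 stood apart by adipocyte genes. The log2 of the summed intensities of the 5 measured genes of 6 listed, here called the summed level, was 13.9 there and at most 10.03 in the other tumours. ADIPOQ, PLIN1, CIDEC and LPL were highest in deleted tumour 4, at 13.37, 11.17, 10.27 and 10.06, whereas LEP was lowest there, at 7.96. Wild-type tumour 3 was highest for the osteoclast genes, whose summed level of 5 measured genes of 7 ranged from 13.4 to 16.1 in deleted and from 15.0 to 17.8 in wild-type tumours. Of these 5 genes 4 were lower on average in deleted tumours, with a median difference of -1.55 and overlapping groups for each. Markers of cycling cells were lower on average in deleted tumours for 6 of 6 measured genes of 10 listed, with summed levels of 11.6 to 12.8 in deleted and 12.7 to 13.4 in wild-type tumours. A gene counts as measured here when 3 or more arrays had its probe well above background. The times at which the image software read the scans were split at noon into 2 sessions, a division made here that no label names. In session 1 were deleted tumours 2 to 4 with wild-type tumour 2, and in session 2 deleted tumour 1 with wild-type tumours 1 and 3.

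FDPS, the synthase of farnesyl diphosphate, was measured by 1 probe at chr7:45214791-45214939 on the minus strand of canFam2. The 60 bases of the probe span 149 genomic bases, as those of a probe across an exon junction do. Its sequence is shown because the array's own description of this probe names RUSC1, a neighbour of FDPS, while its symbol column gives FDPS. The capitals mark codons of the aspartate-rich motif of prenyl synthases, GATGATTTCCTGGAT, found on the forward strand of the probe at bases 40 to 54 in a reading frame without a stop. Such a motif in an open forward frame is present in 97 of 43603 probes, or 0.222%.
FDPS probe: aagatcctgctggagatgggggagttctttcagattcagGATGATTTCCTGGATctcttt
In the RefSeq annotation of assembly UU_Cfam_GSD_1.0 there are 0 genes between RUSC1 and FDPS. The array's separate RUSC1 probe differed by 0.21 between deleted and wild-type tumours (SE 0.16, limma adjusted p = 0.865).

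Deleted tumours 1 to 4 had log2 normalized intensities of 10.28, 10.13, 10.07 and 10.37 for FDPS, against 11.11, 11.02 and 11.22 for wild-type tumours 1 to 3. The groups did not overlap, and the highest deleted and the lowest wild-type tumour were 0.64 apart. The deleted mean was 10.21 ± 0.14 (SD, n = 4) against 11.11 ± 0.10 (SD, n = 3), which is a log2 difference of -0.90, or a 1.87-fold lower intensity in deleted tumours. The difference was -0.83 within session 1, -0.89 within session 2 and -0.92 on the slide that held both groups. That slide held deleted tumours 2 and 3 and wild-type tumour 2, the only wild-type tumour of session 1. Averaging wild-type tumours 1 and 2 into 1 tumour gave -0.93. With any single tumour left out it lay between -0.96 and -0.85.

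ACSL3, which links coenzyme A to long-chain fatty acids at the endoplasmic reticulum and on lipid droplets, was measured by 1 probe at chr37:31930389-31930448 on the plus strand of canFam2. The first 30 of its 60 bases are given so that the measured stretch of this selected gene can be traced.
ACSL3 probe, first 30 bases: aaactgttacttctcatgacgtcgccgttt
For ACSL3 deleted tumours 1 to 4 had log2 intensities of 10.49, 10.36, 10.44 and 10.74, and wild-type tumours 1 to 3 had 11.82, 11.38 and 11.60. These groups did not overlap either, with a gap of 0.64. The deleted mean was 10.51 ± 0.16 (SD, n = 4) against 11.60 ± 0.22 (SD, n = 3), which is a log2 difference of -1.09, or 2.13-fold. It was -0.87 within session 1, -1.22 within session 2 and -0.98 on the shared slide, and -1.09 with wild-type tumours 1 and 2 averaged. Deleted tumour 4 was the highest deleted tumour for both genes. Markers of cycling cells, of osteoclasts and of osteoblasts were lower on average in the same direction, with median differences of -0.67, -1.55 and -0.21 over 6, 5 and 6 genes, and their part in the values of FDPS and ACSL3 was not tested.

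**Figure D1:**
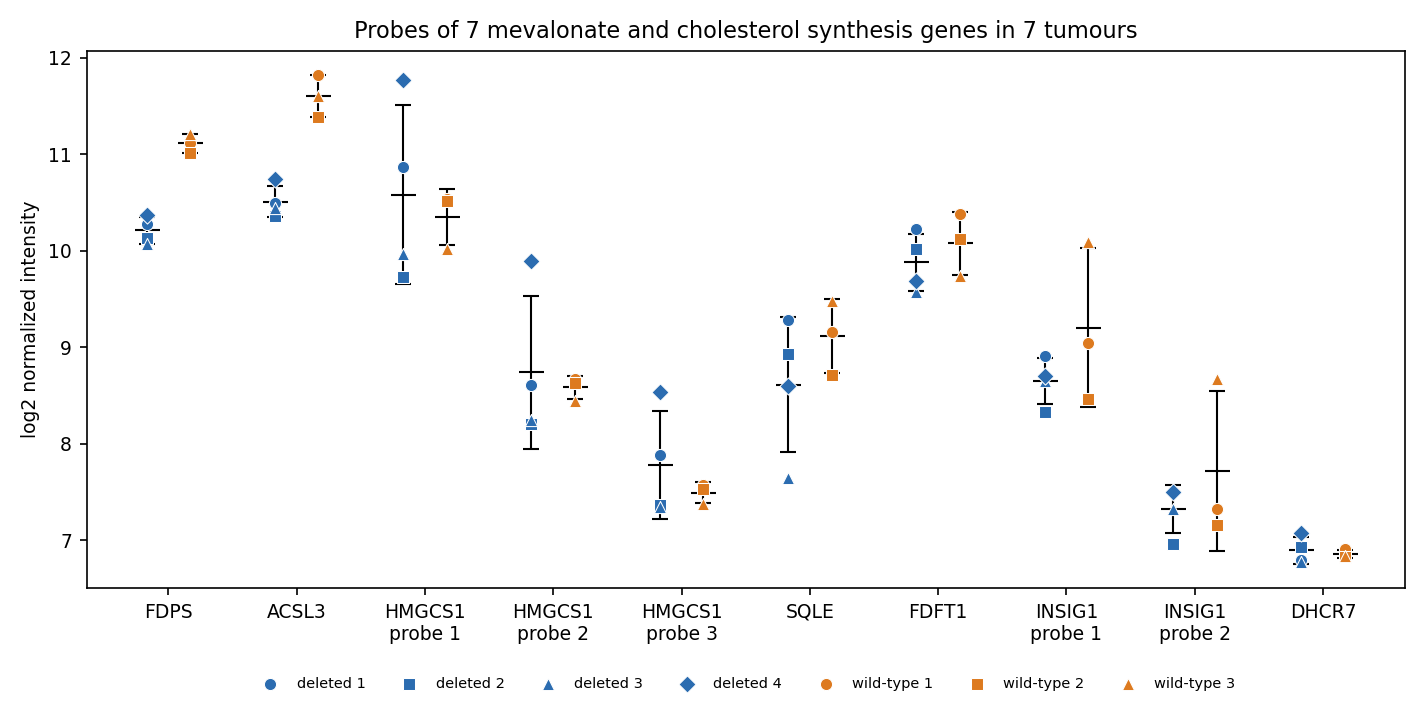
Log2 normalized intensity (y axis) of the 10 probes of 7 genes (x axis) in 4 deleted tumours (blue) and 3 wild-type tumours (orange), with a symbol for each tumour and black bars for the group mean ± SD. FDPS and ACSL3, which were picked for their values, separate the groups by a gap of 0.64 each, and the groups overlap on the 8 probes of the other 5 genes.

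HMGCS1 makes HMG-CoA from acetyl-CoA units and is the earliest step among the members. It was covered by 3 probes between chr4:69846856-69846915 and chr4:69852138-69852197 of canFam2. The probe at chr4:69850450-69850739, on the plus strand, spans 290 genomic bases with its 60 bases. It is shown because, of the HMGCS1 probes, it alone lies across a gap in the genome, as a probe for spliced RNA does.
HMGCS1 junction probe: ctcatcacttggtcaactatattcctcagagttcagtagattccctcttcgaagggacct
On the brightest of the 3 probes, deleted tumours 1 to 4 had log2 intensities of 10.87, 9.73, 9.97 and 11.77 for HMGCS1, and wild-type tumours 1 to 3 had 10.53, 10.51 and 10.02. Deleted tumours lay both above and below all wild-type tumours, over a range of 2.03 against 0.51 in the wild-type group. The difference was 0.23 (SE 0.49, 95% interval -0.94 to 1.40, limma adjusted p = 0.959; two-sided exact permutation p = 0.743).

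The junction probe of HMGCS1 read 8.61, 8.21, 8.25 and 9.90 in deleted tumours (1 to 4), against 8.67, 8.63 and 8.45 in the wild-type tumours (1 to 3). The third probe read 7.88, 7.36, 7.35 and 8.54 in deleted and 7.58, 7.53 and 7.37 in wild-type tumours. Deleted tumour 4, the tumour with high adipocyte genes, was the highest of all 7 on all 3 HMGCS1 probes, and deleted tumours 2 and 3 were the lowest. The differences of these probes were 0.16 (SE 0.41) and 0.29 (SE 0.30), with limma adjusted p of 0.967 and 0.904. The direction rested on deleted tumour 4, because without it the brightest probe differed by -0.16. It was -0.02 within session 1, 0.59 within session 2 and -0.66 on the shared slide, and -0.09 with normexp and 75th percentile scaling, so the sign was not settled. The part of fat tissue in the HMGCS1 value of deleted tumour 4 was not tested.

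FDFT1, squalene synthase, condenses farnesyl diphosphate into squalene and is the first step devoted to sterols. Its probe at chr25:29046133-29046192 (minus strand) read 10.23, 10.02, 9.57 and 9.69 in deleted tumours (1 to 4), against 10.38, 10.12 and 9.73 in the wild-type tumours (1 to 3). Both groups spanned nearly the same range. The difference was -0.20 (SE 0.22, 95% interval -0.71 to 0.31, limma adjusted p = 0.908; two-sided exact permutation p = 0.400). It was -0.36 within session 1 and 0.17 within session 2, and with age as a covariate it was 0.23. Without wild-type tumour 1 it was -0.05, without deleted tumour 3 -0.10, and without wild-type tumour 3 -0.37. The wild-type dogs were 8 to 12 years old and the deleted dogs 6 to 9.

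SQLE, squalene epoxidase, catalyses the first oxygen-requiring step and is a second control point of the pathway. Its probe at chr13:26054276-26054335 (plus strand) read 9.28, 8.93, 7.64 and 8.60 in deleted tumours (1 to 4), against 9.16, 8.72 and 9.48 in the wild-type tumours (1 to 3). Deleted tumour 3 was the lowest of all 7, and deleted tumours 1 and 2 lay inside the wild-type range. The difference was -0.50 (SE 0.40, 95% interval -1.45 to 0.44, limma adjusted p = 0.869; two-sided exact permutation p = 0.400). Without deleted tumour 3 it was -0.18, and with age as a covariate -0.19. It was -0.33 within session 1 and -0.03 within session 2. SQLE was lower on average in deleted tumours under all 25 alternative settings, and it was called under none of the settings that gave a test.

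DHCR7 reduces 7-dehydrocholesterol to cholesterol, the last step of one arm of the pathway. Its probe, at chr18:50297047-50297106 on the plus strand, is shown because its value depended more on background correction and scaling than on any single tumour.
DHCR7 probe: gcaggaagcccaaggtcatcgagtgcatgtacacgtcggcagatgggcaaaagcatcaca
DHCR7 read 6.80, 6.93, 6.77 and 7.07 in deleted tumours (1 to 4), against 6.90, 6.83 and 6.83 in the wild-type tumours (1 to 3). All 7 values lay within a log2 range of 0.30. They were near the dim end, where the offset of 50 added in background correction compresses log2 differences. The difference was 0.04 (SE 0.10, 95% interval -0.21 to 0.28, limma adjusted p = 0.969; two-sided exact permutation p = 0.857). It was 0.10 within session 1, -0.07 within session 2 and -0.02 without deleted tumour 4. With 75th percentile scaling in place of quantile normalization on normexp values it was 0.71, which is 0.40 above the median shift of all probes under that scaling. With the processed signal of the image software at that scaling it was -0.07.

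INSIG1, which holds SCAP and the SREBP proteins in the endoplasmic reticulum and is itself a target of SREBP, had 2 probes at chr16:21222775-21222834 and chr16:21223279-21223338, both on the plus strand. The brighter probe read 8.91, 8.33, 8.65 and 8.70 in deleted tumours (1 to 4), against 9.05, 8.47 and 10.09 in the wild-type tumours (1 to 3). The other probe read 7.50, 6.96, 7.32 and 7.50 in deleted tumours and 7.33, 7.16 and 8.67 in wild-type tumours. Wild-type tumour 3, the tumour with the highest osteoclast genes, was the highest on both probes, and deleted tumour 2 was the lowest on both.

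The difference of the brighter INSIG1 probe was -0.55 (SE 0.37, 95% interval -1.43 to 0.32, limma adjusted p = 0.832; two-sided exact permutation p = 0.343), and that of the other was -0.40 (SE 0.37, limma adjusted p = 0.899). Without wild-type tumour 3 the brighter probe differed by -0.11, and with age as a covariate by -1.03. It was 0.09 within session 1, -0.66 within session 2 and 0.02 on the shared slide. The part of osteoclasts in the INSIG1 value of wild-type tumour 3 was not tested.

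**Figure D2:**
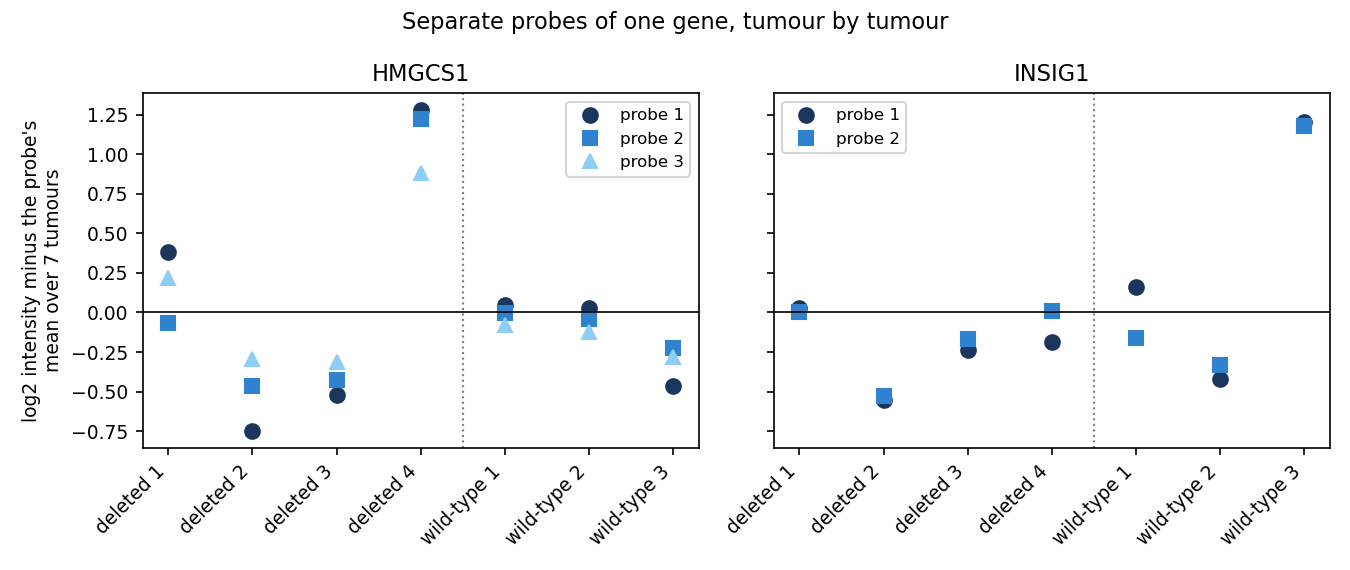
Log2 intensity minus the mean of the probe over 7 tumours (y axis) for each tumour (x axis), for the 3 probes of HMGCS1 (left) and the 2 probes of INSIG1 (right). The probes of a gene go together: deleted tumour 4 is the highest tumour on every HMGCS1 probe and wild-type tumour 3 on both INSIG1 probes.

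Read together, 5 of the 7 genes were lower on average in deleted tumours, against 47.1% of all 11115 genes, and 2 of these 5 are the genes picked for that direction. Of the 5 genes not picked, SQLE, FDFT1 and INSIG1 were lower and HMGCS1 and DHCR7 higher on average. Only SQLE kept its sign under all 25 alternative settings. None of these 5 passed the threshold of an unadjusted p below 0.05 with an adjusted p below 0.1 in limma. Over all 32309 probes tested 0 were called, or 0%, while 2355 had an unadjusted p below 0.05. Of the 5 genes, 0 had an unadjusted p below 0.05, against 3.93% of all genes lower and 3.66% higher at that level. For 0 of the 5 did the groups not overlap, against 3.56% of all genes with every deleted tumour below every wild-type tumour and 4.19% with every deleted tumour above. The median log2 difference was -0.20 over the 5 genes and -0.50 over the 7, against 0.01 over all genes. With wild-type tumours 1 and 2 averaged, the 5 genes differed by 0.31 (HMGCS1), -0.11 (FDFT1), -0.59 (SQLE), 0.04 (DHCR7) and -0.78 (INSIG1).

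The members also varied tumour by tumour. Deleted tumour 3 lay below the mean over all tumours for 7 of 7 genes and had the lowest value for 4 of them, FDPS, SQLE, FDFT1 and DHCR7. Wild-type tumour 1 lay above that mean for 7 of 7 genes. Deleted tumour 1 was above it for 4 genes and wild-type tumours 2 and 3 for 4 genes each. These counts include FDPS and ACSL3, which were picked for lower values in deleted tumours, so that choice shaped them. For the 5 genes not picked, the median deviation from the mean was 0.26, 0.06, -0.39 and -0.19 in deleted tumours 1 to 4. It was 0.16, -0.05 and -0.04 in wild-type tumours 1 to 3. The highest tumour differed between genes, with wild-type tumour 3 for FDPS, SQLE and INSIG1, deleted tumour 4 for HMGCS1 and DHCR7 and wild-type tumour 1 for ACSL3 and FDFT1.

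The other genes of sterol synthesis were read next. Of 16 listed, 14 had a measured probe, of which 7 were lower and 7 higher on average in deleted tumours, with a median difference of -0.00. By limma 0 were called, and 1 lower and 1 higher gene had an unadjusted p below 0.05, against 3.93% and 3.66% of all genes. LSS and EBP were not among those measured.

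MVD, which decarboxylates mevalonate diphosphate just before the isomerase IDI1, went the other way from FDPS. It read 11.36, 10.77, 10.62 and 10.80 in deleted tumours (1 to 4), against 10.46, 10.45 and 10.21 in the wild-type tumours (1 to 3). Every deleted tumour lay above every wild-type tumour, with a difference of 0.52 (SE 0.19, limma adjusted p = 0.644). MVD is named because its groups did not overlap, and 4.19% of all genes separated in that direction. Its two-sided exact permutation p of 0.0571, the lowest value this number of tumours allows, follows from that separation. It therefore adds no further evidence. A second, dimmer MVD probe differed by 0.25 with overlapping groups. PMVK, the kinase just before MVD, differed by 0.13 with overlapping groups on its brighter probe and by 0.29 on the other, on which every deleted tumour lay above the wild-type tumours.

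HSD17B7, a reductase of the later sterol steps, was the single gene of the 14 whose deleted tumours all lay below the wild-type tumours. Of all genes 3.56% separated that way. It read 6.65, 6.63, 6.72 and 6.70 in the deleted and 6.88, 6.82 and 6.96 in the wild-type group, which gave a difference of -0.21 (SE 0.08, limma adjusted p = 0.668). Neither MVD nor HSD17B7 passed the threshold. Over the alternative settings MVD differed by 0.21 to 1.03 while HSD17B7 changed sign, from -1.24 to 0.48. Like those of DHCR7, the HSD17B7 values lay near the dim end, where the offset compresses differences.

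Of the sensing and control genes 9 of 12 were measured, 4 lower and 5 higher, with a median of 0.03. SREBF1, which codes for the SREBP1 factor, had log2 intensities of 12.35, 13.08, 12.29 and 12.63 in deleted tumours and of 12.59, 13.57 and 13.34 in the wild-type group. Its difference was -0.58 (SE 0.29, limma adjusted p = 0.747) with overlapping groups, while its other 2 probes differed by 0.16 and 0.13. SREBF2, the main activator of sterol genes, differed by 0.21 (SE 0.18, adjusted p = 0.884 in limma), by 0.08 without deleted tumour 4, by 0.11 without wild-type tumour 2 and by 0.05 to 0.67 over all settings. SCAP, the sterol sensor that escorts both, differed by 0.03 (SE 0.18, adjusted p = 0.988 in limma), with either sign among the alternative settings. In this list 0 genes were called, 0 had an unadjusted p below 0.05 and 0 had groups that did not overlap.

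Of the genes for sterol uptake, storage and export 13 of 14 were measured, 3 lower and 10 higher, with a median of 0.17, 0 called and 1, higher, at an unadjusted p below 0.05 in limma. Over all genes 3.66% were higher at that level, and 4.19% had every deleted tumour above every wild-type tumour. CYP27A1, which hydroxylates the side chain of cholesterol, read 11.22, 11.41, 10.87 and 11.41 in deleted tumours (1 to 4), against 10.21, 10.27 and 9.62 in the wild-type tumours (1 to 3). Every deleted tumour was above every wild-type tumour, by 1.19 on average (SE 0.21, limma adjusted p = 0.381), and a second probe differed by 0.53 and separated the groups as well. Its difference lay between 0.87 and 1.56 over the alternative settings, and its lowest adjusted p was 0.147, so it was not called.

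The isoprenoid branch, which leads from farnesyl diphosphate to ubiquinone, dolichol and prenylated proteins, had 11 of 14 genes measured. Of these 2 were lower and 9 higher on average, with a median of 0.12, differences between -0.10 and 0.42, and 0 called or at an unadjusted p below 0.05. Of the fatty acid synthesis genes 8 of 12 were measured, 5 lower and 3 higher, with a median of -0.05, 0 called and 2, both higher, at an unadjusted p below 0.05. Over all genes 3.66% were higher at that level, and 4.19% separated the groups with the deleted tumours above. FADS2, the delta-6 desaturase, read 8.41, 9.13, 9.14 and 9.13 in the deleted and 7.86, 8.20 and 8.13 in the wild-type group, which gave a difference of 0.89 (SE 0.21, limma adjusted p = 0.493) with groups that did not overlap. Over the alternative settings it lay between 0.41 and 1.19. The other 2 FADS2 probes, both near the dim end, differed by 0.15 and 0.28 with overlapping groups. ME1 was the other gene with an unadjusted p below 0.05 in limma. Its brightest probe differed by 0.75 (SE 0.29, limma adjusted p = 0.662) with overlapping groups. Its other 2 probes differed by 0.80 and 0.50, and on each every deleted tumour lay above every wild-type tumour.

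Of 9 other acyl-CoA synthetases listed 7 were measured, 2 lower and 5 higher, with a median of 0.08 and, on the brightest probe of each, 0 called or at an unadjusted p below 0.05. ACSF2, a mitochondrial member of the family, read 8.15, 8.13, 8.91 and 8.97 in the deleted and 8.99, 8.97 and 9.23 in the wild-type group, which gave a difference of -0.53 (SE 0.25, limma adjusted p = 0.731). The ACSF2 groups did not overlap, although deleted tumour 4 and wild-type tumour 2 were equal to 2 decimals, and 3.56% of all genes separated that way. Its difference lay between -0.96 and -0.30 over the alternative settings. ACSL4, which prefers arachidonate, differed by 0.50 (SE 0.35, adjusted p = 0.841 in limma), and ACSL5 by 0.08. ACSL1 differed by 0.11 on its brighter probe and by 0.53 on the other, on which every deleted tumour lay above every wild-type tumour (SE 0.13, limma adjusted p = 0.50). The ACSL6 probe was not well above background on any deleted array and was so on 3 of 3 wild-type arrays, so its deleted level is only a bound, although it counts among the 2 lower.

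**Figure D3:**
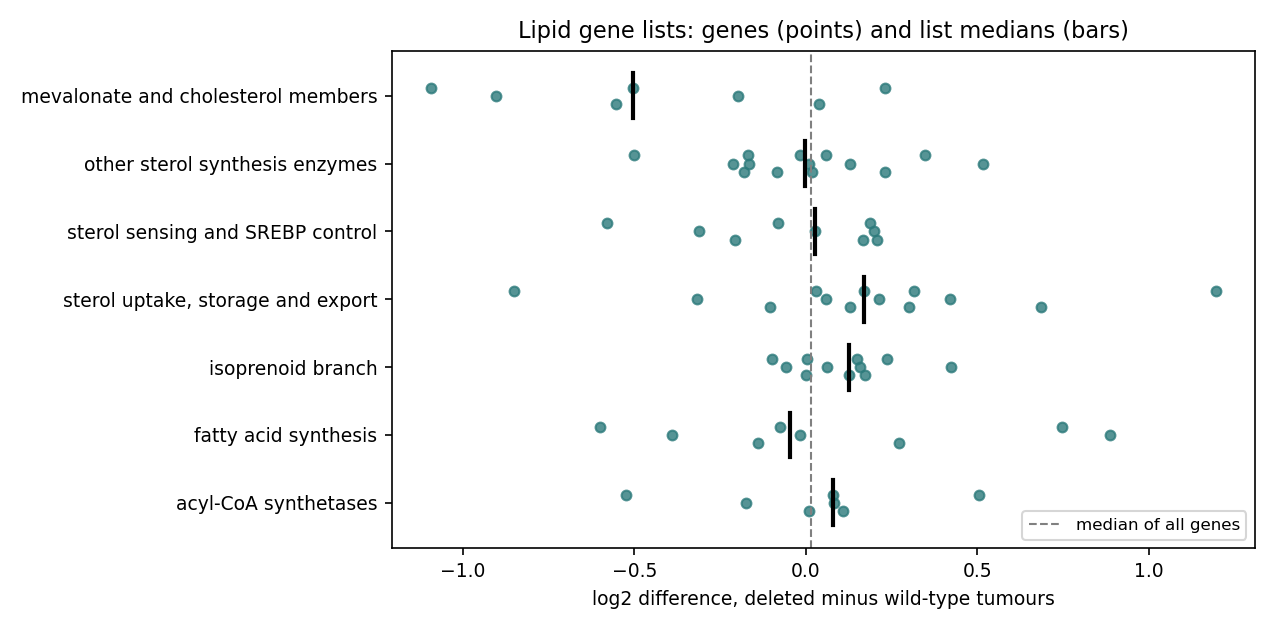
Log2 difference of deleted minus wild-type tumours (x axis) for each measured gene of 7 lists (y axis); points are genes, black bars the median of the list, and the dashed line the median of all genes at 0.01. The members' median of -0.50 includes FDPS and ACSL3, which were picked for low values, and the other 6 lists have medians between -0.05 and 0.17, of which several moved or changed sign when single tumours were left out.

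The genes whose profiles over the 7 tumours were most like those of FDPS and ACSL3 were found from the root mean square difference of mean-centred log2 values over all 11115 genes. For FDPS they were PSD (0.12), SET (0.13), PAN2 (0.15), ACSL3 (0.15) and BBS7 (0.16). For ACSL3 they were PCDHB14 (0.09), FDPS (0.15), SET (0.23), PSD (0.23) and FAT4 (0.23). FDPS and ACSL3 were both chosen for one pattern, so their likeness to each other, and the separation of the groups by their nearest genes, follow from that choice.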

How the data were processed

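RNA of 7 tumours was hybridised (Cy3) to Agilent canine V2 arrays, 1 per tumour. The deposited files hold the linear spot intensity and local background that Agilent Feature Extraction 10.7.3.1 wrote, per the file headers; the authors' methods name multi-array average normalization. Here the mean intensity was background-corrected (normexp, saddle, offset 50), quantile-normalized and put on the log2 scale with limma 3.58.1 in R 4.3.3. Of 45220 spots 43803 were no controls, 144 outlier values were left out, and spots of a probe were averaged to 43603 probes. The 32309 probes well above background on at least 3 arrays were kept, 30280 to 34538 per array before the filter; the number of arrays limits the precision. A gene was read by its brightest probe. Symbols were those of the files or, for 1842 probes, of RefSeq, and coordinates those of the files (canFam2). Exons and untranslated regions were not annotated here.

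Groups were compared with limma's two-sided moderated test over all kept probes, with Benjamini-Hochberg adjustment, and with the exact permutation test over 35 assignments. The p-value of that test doubles the smaller tail, so its smallest value is 0.0571. Scripts were tested on simulated data. The members and lists were chosen with earlier results of these data known. Named beside the members were SREBF1, SREBF2, SCAP, list genes whose groups did not overlap, and the 5 genes most like FDPS and ACSL3. ACSL1, ACSL4, ACSL5, ACSL6, ME1 and PMVK were added after their values were seen. Some listed genes enter the counts only and have no values given here. Alternatives were other background corrections, scalings, filters, tests, blocks and covariates, and leaving out each tumour. Markers of 9 tissues or cell states were read; the erythroid list had 0 genes with a kept probe.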

Additional observations from a re-analysis of the deposited data

How the results depend on the processing

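Over 25 alternatives FDPS (-1.21 to -0.83) and ACSL3 (-1.40 to -0.87) stayed lower in deleted tumours. Both were picked for that direction, and their groups did not overlap, so any subset of the same normalized values had to keep the sign. SQLE, which was not picked, stayed lower too (-0.74 to -0.03). The lowest values of FDPS and ACSL3 came with normexp and 75th percentile scaling, which moved the median of all probes by 0.32, so that relative to all probes they were -1.53 and -1.71. HMGCS1 changed sign with that scaling (-0.093, or -0.41 relative to all probes), with array weights (-0.065), with slide as a block and within the shared slide (-0.66 each), within session 1 (-0.023) and without deleted tumour 4 (-0.16, the lowest of -0.16 to 0.51 with single tumours left out). Slide as a block and the shared slide gave the same contrast, because the other slides held 1 array each. INSIG1 changed sign with slide as a block and within the shared slide (0.024 each) and within session 1 (0.094). FDFT1 did so within session 2 (0.17) and with age as a covariate (0.23), and DHCR7 with the processed signal at 75th percentile scaling (-0.074), array weights (-0.0020), within session 2 (-0.074) and without deleted tumour 4 (-0.021, the lowest of -0.021 to 0.078 with single tumours left out). The cause was not tested. The median of the 7 members was -0.19 with the extraction session as a term, -0.19 with age and -0.074 within session 2, and between -0.70 and -0.18 with single tumours left out. That of the 5 members not picked was -0.49 with normexp and 75th percentile scaling and 0.084 with age, the 1 setting that turned it, and between -0.31 and -0.049 with single tumours left out, the latter without wild-type tumour 1. Of these 5, 3 were lower in the main comparison, 2 with age as a covariate, 5 with array weights, and 3 to 5 with single tumours left out, the 5 without deleted tumour 4. Under the 21 alternatives that gave a test, 0 of the 5 members and 0 genes of the other lists were called, while the calls over all probes ranged from 0 to 46, with 46 without wild-type tumour 3, 23 with normexp and 75th percentile scaling and 10 with the processed signal at that scaling. With single tumours left out the list medians ranged from -0.089 to 0.096 for the other sterol synthesis genes, -0.066 to 0.055 for sensing and control, 0.086 to 0.28 for uptake, storage and export, 0.040 to 0.10 for the isoprenoid branch, -0.081 to 0.019 for fatty acid synthesis and -0.12 to 0.20 for the acyl-CoA synthetases. No paired analysis was possible because tumour numbers only name different dogs. With 4 and 3 tumours the intervals of SQLE, INSIG1 and HMGCS1 are wide enough to hold differences as large as those of FDPS.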

Other observations

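Among gene groups of other cells, the 7 cartilage genes were all higher on average in deleted tumours, with a median difference of 0.78 and COL2A1, the main cartilage collagen, at 3.39, but 0 of them had groups that did not overlap. The 5 measured endothelial genes were also all higher on average, with a median of 0.51 and PECAM1 at 1.07, and 0 of them were called or had an unadjusted p below 0.05 in limma. Of 8 leukocyte genes 5 were lower and 3 higher. CD3E and CD8A, which mark T cells, were the 2 whose groups did not overlap, at 0.51 and 0.36 higher in deleted tumours (limma adjusted p = 0.591 each). Of all genes, 4.19% separated the groups in that direction. Of the 6 measured genes of cycling cells, PCNA and MCM5, which act in DNA replication, lay below every wild-type tumour in every deleted tumour. They differed by -1.29 and -1.02 on average (limma adjusted p = 0.542 and 0.536), and 3.56% of all genes separated that way. Of the leukocyte and cycling genes 0 were called. The part of these gene groups in the values of FDPS and ACSL3 was not tested.

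SCD, the stearoyl-CoA desaturase, which is also a target of SREBP1, read 14.66 in deleted tumour 4 against 11.10, 12.51 and 12.21 in the other deleted tumours and 13.63, 13.07 and 12.96 in the wild-type group. Deleted tumour 4, the tumour with the high adipocyte genes and the highest HMGCS1, was thus the highest for SCD as well, and its other 2 SCD probes showed it highest too, at 9.81 and 10.43. SCD was singled out after its values were seen.

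Probes that the array describes as IDI1 but lists under other names were no members. One, under an expressed sequence tag, read 7.67, 7.25, 7.39 and 8.56 in the deleted and 7.51, 7.44 and 8.23 in the wild-type group, a difference of -0.01 (SE 0.36). The other read between 17.58 and 17.68 on all arrays, at the top of the scale, and differed by 0.04. The first is placed on chr2 and the other on chr3, so both cannot lie in the IDI1 gene.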
